A study of Mus musculus with 2 samples.

Results

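Mir144, Mir451a and Mir486 are the 3 genes of the classical erythroid miRNAs, and they were taken by gene symbol from the 1973 miRNA genes counted in liver of mouse embryos. The choice rests on the symbols, and it was made with earlier results of these data known. The liver came from B6NCrl embryos at day 12.5 with males and females pooled, in 2 biological replicates of a single healthy, untreated group. Livers of 88 embryos were pooled for replicate 2 and of 120 embryos for replicate 1. Both pools have 1 donor identifier in the labels, so the spread between them may be in part technical. No second tissue, age or treatment was measured, so the data give levels, the ratios of these genes to each other and the difference between the 2 libraries. The tissue was whole liver, in which red cell precursors lie among hepatoblasts, endothelium and mesenchyme.

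The fetal liver is the main site of definitive red cell formation at this stage. Most miRNAs are cut from a primary transcript by Drosha, trimmed to a short duplex by Dicer and loaded into an Argonaute protein. Mir144 and Mir451a lie on the same primary transcript, which the erythroid factor GATA1 activates, yet only Mir144 follows that route. The stem of the Mir451a precursor is too short for Dicer and is sliced by Argonaute2 instead. Loss of this locus in mice impairs red cell maturation, and miR-451 represses Ywhaz (14-3-3 zeta), while miR-144 represses Dicer in zebrafish red cells. Mir486 lies inside Ank1, the gene of the red cell membrane protein ankyrin. It is cut by Dicer, and its passenger strand is removed by Argonaute2 slicing. Mir486 is also expressed in muscle.

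In mm10 coordinates of GENCODE M21, Mir144 (ENSMUSG00000065401.1) spans chromosome 11, 78073005 to 78073070, and Mir451a (ENSMUSG00000070065.1) spans 78073170 to 78073241, both on the plus strand. A gap of 99 bases separates them, and no other annotated gene lies over either except Mir451b, which covers exactly the place of Mir451a on the minus strand. The nearest protein-coding gene, Eral1, runs on the minus strand toward Mir451a and ends 135 bases from it. Mir486 (ENSMUSG00000070084.3) spans chromosome 8, 23142555 to 23142682, on the plus strand in an intron of Ank1, with Mir3107 annotated on the minus strand inside its span.

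The mature sequences of the chromosome 11 pair show which products the counts of each gene can hold, with the seed (bases 2 to 8) in capitals. They are from RefSeq on GRCm38.p6, written 5′ to 3′.
miR-144-5p: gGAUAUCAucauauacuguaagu
miR-144-3p: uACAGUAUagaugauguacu
miR-451a: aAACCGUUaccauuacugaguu
None of these 3 seeds occurred in any other of the 1679 mature mouse miRNA names of that table. Bases 2 to 7 of miR-144-3p occurred in 1 other, miR-101a-3p. The deposited counts are per gene, so the 2 arms of Mir144 cannot be told apart.

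The hairpins of the 2 genes are given with the annotated mature miRNAs in capitals.
Mir144 hairpin: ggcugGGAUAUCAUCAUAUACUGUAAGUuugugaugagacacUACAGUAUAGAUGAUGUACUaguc
Mir451a hairpin: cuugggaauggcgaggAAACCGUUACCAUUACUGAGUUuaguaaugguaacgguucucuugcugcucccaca
In the minimum free energy fold of the Mir144 hairpin (66 bases, 27 pairs, -28.6 kcal/mol), a loop of 6 bases lay between the 2 annotated arms. In the Mir451a hairpin (72 bases, 30 pairs, -43.3 kcal/mol), the loop had 4 bases, at positions 35 to 38, and the mature miRNA ran from position 17 to 38, so it held the whole loop. Of 1559 annotated mature miRNAs on the 938 hairpins that folded with a single loop, 2 held all bases of that loop, miR-451a and miR-468-5p. Loops of 4 or fewer bases were common, at 30.7% of those hairpins. These are predictions from sequence and not measurements of processing.

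**Figure D1:**
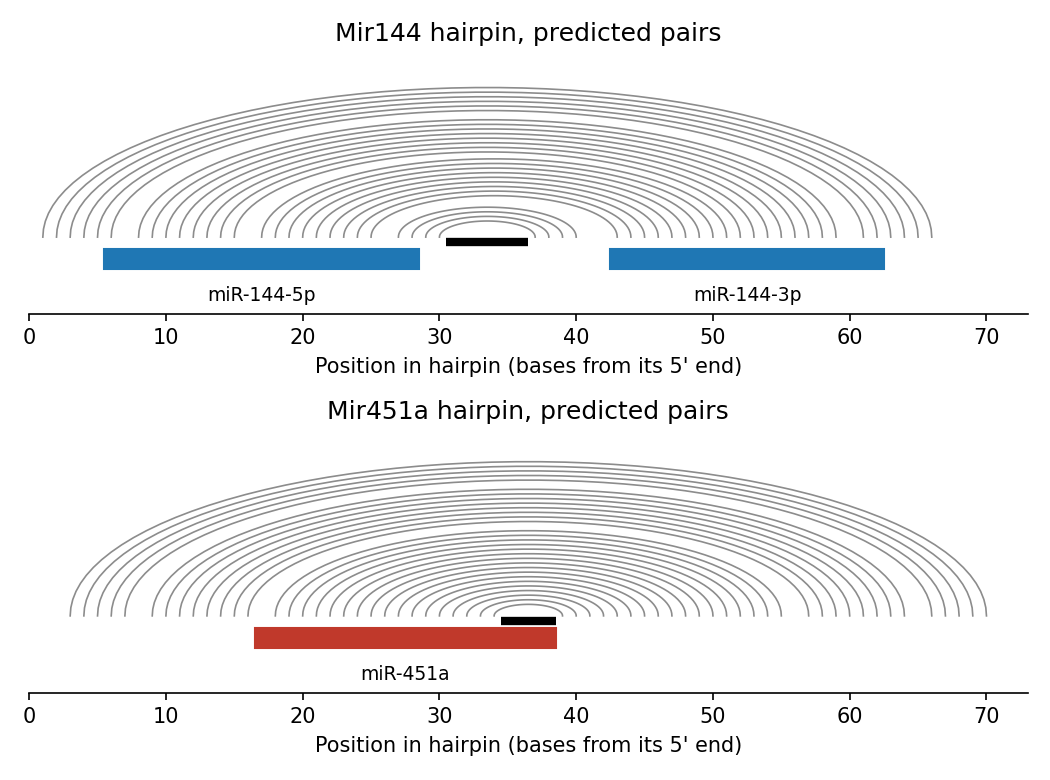
Predicted base pairs (arcs) along the Mir144 and Mir451a hairpins, with position in bases from the 5′ end on the horizontal axis, mature miRNAs as coloured bars and the terminal loop as a black bar. The loop lies between the 2 mature miRNAs of Mir144, at positions 31 to 36, and inside the single mature miRNA of Mir451a, at positions 35 to 38.

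By counted reads, Mir451a was the most abundant of the 3 genes in both libraries, Mir144 came next and Mir486 was lowest. Levels were scaled to 1000000 sense counts on all miRNA genes (CPM), of which there were 3534816 in replicate 2 and 3447858 in replicate 1. Intervals are exact Clopper-Pearson ones at 95% unless stated otherwise. The reads carry no molecular identifiers, so intervals and limits cover counting error only.

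Mir451a, whose miRNA promotes red cell maturation, had 114867 sense counts in replicate 2 and 42828 in replicate 1. These are 32496 CPM (32311 to 32681) and 12422 CPM (12305 to 12539), with a mean of 22459 ± 14195 CPM (SD, n = 2). Replicate 2 was the higher library, and the 2 intervals did not overlap. By sense counts of the analysed genes, Mir451a was at rank 6 in replicate 2 and at rank 23 in replicate 1. All ranks given here leave out miRNAs without a row of their own and reads that align to several places. Reads opposite Mir142b, where M21 annotates Mir142, outnumbered those of Mir451a in both libraries (144755 in replicate 2 and 150867 in replicate 1). Of all reads of the library, mapped or not, Mir451a took 1.04% in replicate 2 and 0.387% in replicate 1.

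Mir144, the upstream gene of the pair, had 14289 sense counts in replicate 2 and 11379 in replicate 1. These are 4042 CPM (3976 to 4109) and 3300 CPM (3240 to 3361), with a mean of 3671 ± 525 CPM (SD, n = 2). Its SD was 14.3% of its mean, against 63.2% for Mir451a and 21.0% for Mir486. Mir144 was at rank 52 in replicate 2 and at rank 61 in replicate 1.

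Mir486 had 3153 sense counts in replicate 2 and 4151 in replicate 1. These are 892 CPM (861 to 924) and 1204 CPM (1168 to 1241), with a mean of 1048 ± 221 CPM (SD, n = 2). Here replicate 1 was the higher library, unlike for the chromosome 11 pair. Mir486 and Mir3107 are known to give near-identical mature miRNAs, and reads that align to several places (31.1% of all reads in replicate 2 and 28.8% in replicate 1) are counted on no gene. The Mir486 level is therefore uncertain and may be too low.

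By mean level, Mir451a stood at rank 11 between Mir411 (23474 ± 1270 CPM) and Mir20a (21484 ± 3445 CPM). Mir144 stood at rank 56 between Mir298 (3725 ± 297 CPM) and Mir483 (3436 ± 548 CPM), and Mir486 at rank 100 between Mir29a (1049 ± 20.8 CPM) and Mir188 (1028 ± 184 CPM). The ranges of each member and of both its neighbours overlapped over the 2 libraries. These 6 genes were picked as the nearest in mean level, so the overlap says nothing about separation. Among the 3 members themselves no ranges of counted reads overlapped, although the Mir486 level may be too low.

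**Figure D2:**
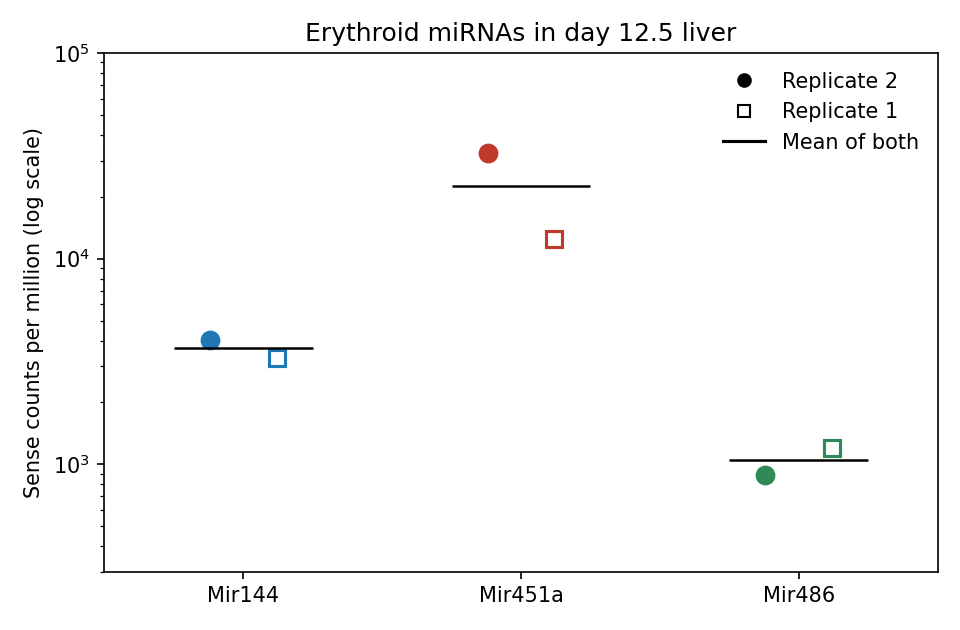
Sense counts per 1000000 (log axis) of the 3 erythroid miRNA genes, with replicate 2 as filled circles, replicate 1 as open squares and the mean as a line. Mir451a lies at 32496 and 12422 CPM, Mir144 at 4042 and 3300 CPM, and Mir486 at 892 and 1204 CPM, in replicate 2 and in replicate 1 in that order.

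The Argonaute2-sliced Mir451a exceeded its Dicer-cut neighbour Mir144 in counts 8.04 times in replicate 2 (7.90 to 8.18) and 3.76 times in replicate 1 (3.69 to 3.84). The mean ratio was 5.90 ± 3.02 (SD, n = 2), so its size is known only roughly. Divided by the annotated gene lengths, the ratio was 7.37 in replicate 2 and 3.45 in replicate 1, a computation chosen after the data were seen. A short read covers a whole mature miRNA, so other counts were not divided by length. How well either miRNA was captured in the library was not measured, and the ratio need not be that of the molecules.

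Because both genes sit in the same library, the change in their ratio depends on no scaling. The ratio in replicate 2 was 2.14 times that in replicate 1, a difference of 1.09 on the log2 scale. The 95% intervals, 2.08 to 2.19 and 1.06 to 1.13, rest on a normal approximation on the log scale and are not exact. Fisher's exact test on the 4 counts passed at 0.05, and it compares the 2 libraries, not conditions. The count ratio of Mir451a to Mir486 was 36.4 in replicate 2 and 10.3 in replicate 1. That of Mir144 to Mir486 was 4.53 in replicate 2 and 2.74 in replicate 1. Both ratios to Mir486 may be too high, because its reads that align to several places are not counted. All 3 ratios were thus larger in replicate 2.

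Taken as a sum, the 3 genes held 3.74% of the sense counts in replicate 2 and 1.69% in replicate 1. Mir451a made up 86.8% of that sum in replicate 2 and 73.4% in replicate 1. Mir144 and Mir486 alone held 0.493% in replicate 2 and 0.450% in replicate 1. The difference between the libraries in the erythroid sum thus came almost wholly from Mir451a. In whole tissue, fewer red cell precursors and less of a miRNA per cell cannot be told apart.

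The difference of each gene between the libraries is given as a log2 ratio, replicate 2 over replicate 1, on library sizes scaled by TMM. It was tested for all 464 genes with at least 10 counts over both libraries by a two-sided exact binomial test with Benjamini-Hochberg adjustment, which allows for counting error only. Mir451a had a log2 ratio of 1.44 (95% interval 1.43 to 1.46), or 2.72-fold higher in replicate 2. Mir144 had 0.35 (0.31 to 0.38, adjusted p = 6.68e-81), or 1.27-fold higher. Mir486 had -0.38 (-0.45 to -0.31, adjusted p = 7.70e-28), or 1.30-fold lower. All 3 passed, but so did 40.3% of the 464 genes, 22.0% as higher and 18.3% as lower in replicate 2, so that passing this test does not set the members apart. Scaled to total sense counts, the split over all genes was 77 higher and 101 lower in place of 102 and 85, and each member kept its direction.

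Set against an assumed variation beyond counting, the ratio of Mir451a passed and those of the other members did not. In edgeR's negative binomial exact test with an assumed coefficient of variation of 0.1, which 2.59% of genes passed, Mir451a passed (adjusted p = 2.16e-09). Mir144 (adjusted p = 0.564, edgeR) and Mir486 (adjusted p = 0.531, edgeR) did not. With the coefficient estimated from the same libraries, 0.162, 1.08% of genes passed, Mir451a among them (adjusted p = 0.00436, edgeR). The assumed value is below that estimate, and the estimate rests on the difference it is set against. With 1 library on each side, both versions order genes by their ratio and their counts together and do not test a replicated difference.

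Among the 289 genes with at least 100 counts, Mir451a had the highest log2 ratio, and its absolute size exceeded that of 286 of them. Mir144 stood 31st from the highest and Mir486 33rd from the lowest. The median absolute log2 ratio of these genes was 0.18. Mir144 exceeded 221 of them in absolute size and Mir486 exceeded 231.

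**Figure D3:**
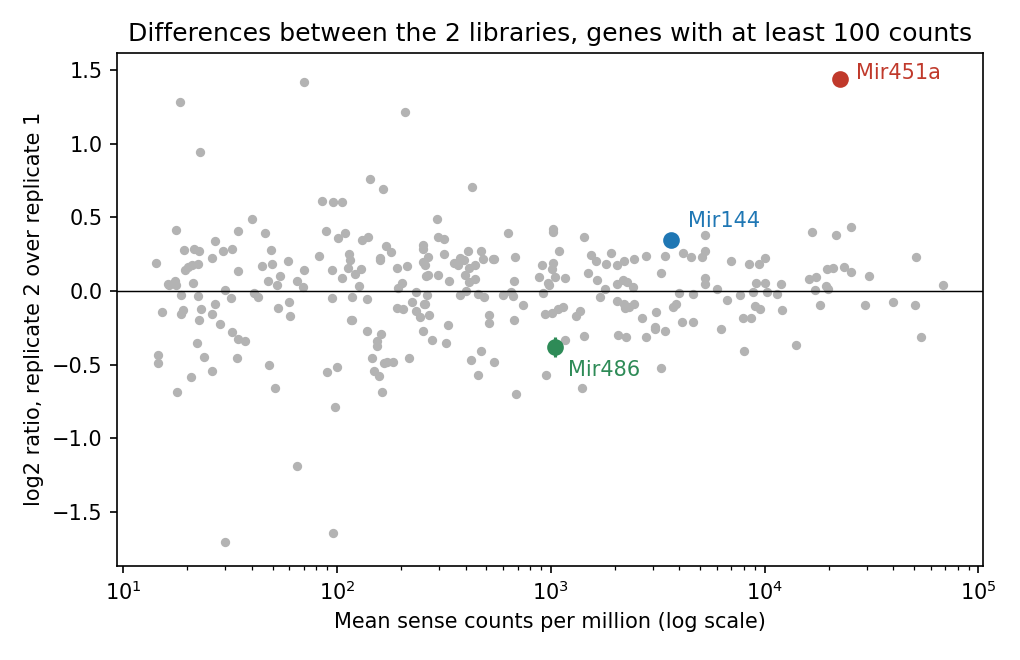
log2 ratio of replicate 2 over replicate 1 against mean sense counts per 1000000 (log axis) for the genes with at least 100 counts. Each point is a gene, and the 3 members are coloured, with their 95% intervals as vertical bars. Mir451a at 1.44 has the highest ratio, and the other genes past 1 in either direction lie at far lower levels. Mir144 (0.35) and Mir486 (-0.38) lie in the cloud of other genes.

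The 5 genes nearest to Mir451a in this ratio all lay below it, because Mir451a had the highest ratio. With only 2 libraries this likeness rests on a single ratio per gene, among genes with at least 100 counts. Mir208b, a muscle miRNA of the Myh7 myosin gene, had 101 CPM in replicate 2 and 39.2 CPM in replicate 1, a log2 ratio of 1.42 (1.13 to 1.72). Mir204, in an intron of Trpm3, followed with 1.28 (0.73 to 1.88), and the muscle miRNA Mir206 with 1.22 (1.06 to 1.38). Mir196a-2, in an intron of Hoxc5, had 0.95 (0.47 to 1.45) and Mir193b had 0.76 (0.58 to 0.95). Mir196a-2 has a second gene with the same mature miRNA, so its value is uncertain. The intervals of Mir208b, Mir204 and Mir196a-2 took in the value of Mir451a, and those of Mir206 and Mir193b did not reach it. All 5 stood below 300 CPM in each library, far under the level of Mir451a.

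The chromosome 11 pair stood near the far end of the differences in log2 ratio among neighbouring miRNA genes. There were 60 pairs of consecutive genes on the same strand at most 1000 bases apart, each gene with at least 100 counts. The 2 genes of a pair differed in log2 ratio by a median of 0.19, and 8 pairs differed by at least 0.5. In 34 of the 60 pairs both genes had the same sign. Pairs of unlinked genes were not compared. The median absolute log2 ratio of single genes with at least 100 counts was 0.18, so likeness of neighbours is not shown. Mir144 and Mir451a differed by 1.09, second of the 60. Mir293 and Mir294, of the pluripotent cell cluster, differed by 1.22, and Mir323 and Mir758, of the imprinted chromosome 12 cluster, by 0.92. Those pairs rest on fewer counts, with Mir294 at 64.9 CPM and Mir758 at 105 CPM on average. In level the pair was ordinary, since its absolute log2 ratio of mean CPM, 2.61, stood 31st of 60 beside a median of 2.71.

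**Figure D4:**
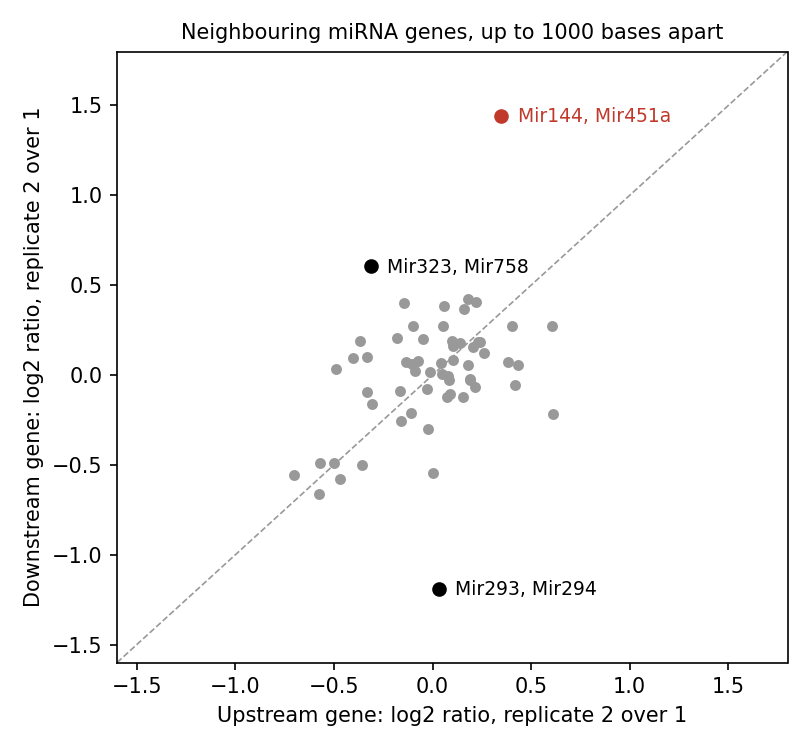
log2 ratio of replicate 2 over replicate 1 for the downstream gene (vertical axis) against the upstream gene (horizontal axis) in 60 pairs of neighbouring miRNA genes, each point a pair, with equal change on the dashed line. Mir144 and Mir451a, at 0.35 and 1.44, lie above the line, and the other labelled pairs are the remaining 2 of the 3 largest differences.

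Opposite-strand reads set Mir486 apart from the chromosome 11 pair. Mir486 had 301 opposite-strand counts beside 3153 sense counts in replicate 2 and 363 beside 4151 in replicate 1. The opposite-strand share was 8.71% in replicate 2 (7.79 to 9.70) and 8.04% in replicate 1 (7.26 to 8.87), with a mean of 8.38% ± 0.476 (SD, n = 2). Their difference did not pass Fisher's exact test on the counts of these libraries (two-sided p = 0.288), and the intervals overlap. These reads lie opposite to Mir486, where M21 annotates Mir3107, a gene that has no row of its own in the analysed tables. Reads that align to several places are counted on neither strand. The share therefore covers uniquely placed reads only and need not be the proportion of Mir3107 to Mir486 products. Scaled like sense counts they come to 85.2 CPM in replicate 2 and 105 CPM in replicate 1, and their log2 ratio of -0.25 (-0.48 to -0.03) had the sign of that of Mir486.

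Mir451a had 3 opposite-strand counts in replicate 2 and 1 in replicate 1, or 0.00261% and 0.00233% of its counts, although Mir451b is annotated there. The hairpin nearly repeats itself on the other strand, and the run of miR-451a that also occurs there is shown in capitals.
miR-451a: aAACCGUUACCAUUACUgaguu
This run has 16 bases, from base 2 to 17, and the last 5 bases mark the strand. Mir144 had 0 opposite-strand counts in each library, and 3 counts of its total would be 0.0210% in replicate 2 and 0.0264% in replicate 1. The longest run of either Mir144 product on its own other strand had 9 bases. The longest run that miR-451a shared with a hairpin elsewhere in the table had 10 bases, as did that of miR-144-3p. Mir486 and Mir3107 are named here without sequences.

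Across the 300 genes with at least 100 counts on both strands together, 252 had no opposite-strand count at all. In 17 the share was above 1%, and 14 of these have a miRNA gene annotated on the other strand in M21. Of the 277 genes without such a partner, 3 passed 1%. Mir486 stood 13th of the 300, while 9 genes with an annotated partner, Mir451a among them, had 1% or less.

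**Figure D5:**
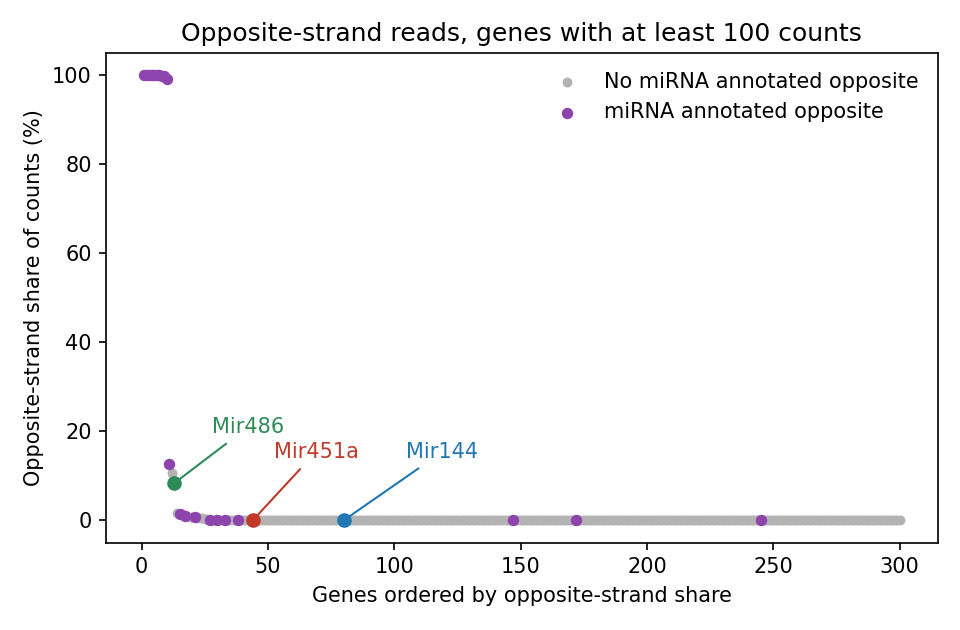
Share of each gene's counts on the opposite strand (percent, vertical axis, mean of both libraries) for 300 genes in order of that share, purple where a miRNA gene is annotated opposite. Mir486 lies at 8.38%, Mir451a and Mir144 lie at or next to 0, and the 10 genes near 100% all have a miRNA gene annotated opposite.

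Other miRNAs linked to red cell maturation had log2 ratios between -0.18 and 0.40. The list, chosen with earlier results of these data known, held 11 genes, all tested, and of the 8 besides the members 4 were higher and 2 lower in replicate 2 by the exact binomial test. Over all genes tested 22.0% were higher and 18.3% lower, and none of the 8 passed edgeR's exact test at a coefficient of variation of 0.1. Their median log2 ratio was 0.04, beside 0.02 over all genes tested. Among the miR-15 and miR-16 genes, which restrain the cell cycle, Mir16-2 had 0.40, Mir16-1 had 0.27 and Mir15b had -0.14. Mir16-1 and Mir16-2 encode the same mature miRNA, so their counts are uncertain. Mir15a had 0.05 and passed, but its sign turned when scaled to total counts (-0.0030). Mir210, a hypoxia miRNA that rises in red cell precursors, had 0.25, and Mir22 had -0.18. Mir320 (-0.03) and Mir363 (0.02) did not pass.

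miRNAs linked to early blood progenitors, or known to decline as red cells mature, had log2 ratios between -0.29 and 0.22. The ends of that range were Mir181a-2, which passed as lower, and Mir181a-1, which passed as higher. Both encode the same main mature miRNA, so their counts and their opposite calls are uncertain. Of 13 listed, 11 were analysed and tested, 3 were higher and 2 lower in replicate 2 by the exact binomial test, and the median log2 ratio was -0.0041. The 5 calls among 11 genes are close to the 40.3% called over all genes. Scaled to total counts the split was 1 higher and 4 lower, and none of the 11 passed edgeR's exact test at a coefficient of variation of 0.1. The Kit repressors Mir221 (337 CPM in replicate 2, 333 CPM in replicate 1) and Mir222 (218 and 249 CPM in the same order) did not pass. Mir150, which represses Myb, had a log2 ratio of -0.16. Mir155 stood at 230 CPM in replicate 2 and 239 CPM in replicate 1. Neither passed. Mir223, a myeloid miRNA that represses Lmo2, had -0.26 and passed the binomial test as lower.

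Other tested miRNAs made outside the standard route had log2 ratios between -0.03 and 0.22. Of the 7 listed, 6 were analysed and 5 tested. Besides Mir451a, Mir484, whose capped precursor skips Drosha, was higher in replicate 2, at 2577 CPM against 2305 CPM in replicate 1 (log2 ratio 0.22). Mir320, of the same kind, had 581 CPM in replicate 2 and 616 CPM in replicate 1 and did not pass. Mir877, a mirtron that is freed by splicing, had 107 CPM in replicate 2 and 105 CPM in replicate 1. Mir702 had 27.7 CPM in replicate 2 and 24.7 CPM in replicate 1, and neither of these passed.

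Markers of other cell types also differed between the 2 pools, and their part in the values above was not tested. The calls below are from the exact binomial test, which 22.0% of all genes passed as higher and 18.3% as lower. In edgeR's exact test at a coefficient of variation of 0.1, 1 epithelial and 2 muscle genes passed, and none of the hepatocyte, mesenchyme, endothelial or leukocyte and megakaryocyte lists. The epithelial miR-200 genes, 5 of 5 lower, held 0.212% of sense counts in replicate 2 and 0.341% in replicate 1. The hepatocyte miRNA Mir122, also lower, held 4.71% in replicate 2 and 6.09% in replicate 1. The muscle list, with 3 of 4 tested genes higher, held 0.0689% in replicate 2 and 0.0439% in replicate 1, while 0 sense counts fell on Mir133a-1, Mir133a-2 and Mir1a-1 in either library. Each of these 3 has a second gene with the same mature miRNA, so a count of 0 does not bound its level. The mesenchyme list, with 6 of 7 higher (5 when scaled to total counts or by DESeq2 size factors), held 5.99% in replicate 2 and 5.02% in replicate 1. Its largest member was Mir99a, at 28581 CPM in replicate 2 and 21950 CPM in replicate 1. Mir100 had 5875 CPM in replicate 2 and 4687 CPM in replicate 1. Both were among the higher genes, and whether they mark mesenchyme in this tissue was not tested. The leukocyte and megakaryocyte list, with 6 of 8 genes analysed, held 0.641% in replicate 2 and 0.771% in replicate 1. Those shares leave out the opposite strand of its member Mir142b, where M21 annotates the blood cell miRNA Mir142: Mir142b had 0 sense counts, but 144755 opposite-strand counts in replicate 2 and 150867 in replicate 1. The endothelial list held 7.99% in replicate 2 and 7.96% in replicate 1, with 3 of 3 higher, though Mir126a turned sign when scaled to total counts.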

How the data were processed

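Short RNA of embryonic mouse liver was sequenced in 2 libraries. The authors deposited raw read counts per miRNA gene, for both strands, the sense strand and the opposite strand. Per the file headers of the deposited lists, the assembly was mm10 and the annotation GENCODE M4. Aligner and counter: not given in the sources used here. Lines for reads of no gene were left out of library sizes.

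Names and places came from GENCODE M21 (1894 of 1973 genes matched). TMM factors and negative binomial tests used edgeR 4.0.16, size factors DESeq2 1.42.0, exact binomial and Fisher tests SciPy 1.17.1, with 0.5 counts added in log2 ratios, and folds RNAfold (ViennaRNA 2.7.2). With the 2 libraries set against each other, edgeR's quasi-likelihood test has no residual degrees of freedom. The binomial test was checked on simulated counts. Sequences were matched by symbol for Mir144, Mir451a and Mir451b.

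Named genes were the members, their opposite-strand partners, neighbours in rank and in log2 ratio, the 3 most unequal neighbour pairs and the listed genes. miR-101a-3p and miR-468-5p were named after their values were seen. The members and lists were chosen with earlier results of these data known. The listed genes Mir142, Mir146a, Mir191, Mir24-1, Mir1225 and Mir1a-2 were not analysed here. Alternatives were other scalings, both strands, no low-count filter, other tests, other neighbour limits and leaving out a replicate.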

Additional observations from a re-analysis of the deposited data

How the results depend on the processing

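Of 41 alternative values that keep both replicates, 35 counted as unchanged. For log2 ratios this meant the same direction and the same side of any threshold applied. For levels and the ratio of Mir451a to Mir144 it meant a move of less than the SD of the 2 libraries. For numbers of genes and neighbour medians it meant a change within a set fold limit. The SD of Mir451a was 63.2% of its mean, so its level could hardly fail. In edgeR's exact test with a coefficient of variation of 0.1 or with the estimate, the log2 ratio of Mir144 (0.35, adjusted p = 0.564 and 1) and that of Mir486 (-0.38, adjusted p = 0.531 and 1) no longer passed, and 12 and 5 genes passed in place of 187. These tests allow for more variation than counting error by construction. Leaving out a replicate gives the value of the other, which says nothing about stability: levels of 3300 to 4042 CPM for Mir144, 12422 to 32496 CPM for Mir451a and 892 to 1204 CPM for Mir486, a ratio of Mir451a to Mir144 from 3.76 to 8.04, and an opposite-strand share of Mir486 from 8.04% to 8.71%. Mir144 and Mir451a ranked 3rd of 89 neighbour pairs within 10000 bases and 5th of 76 with at least 10 counts. No paired analysis was possible because there is a single group. Depth allows 0.849 CPM in replicate 2 and 0.870 CPM in replicate 1 for a count of 0.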
